A study of Mus musculus with 49 samples.

Results

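Insulation at domain borders was described here through 1 value per cell, the column mean_insu of 3 deposited tables of single-cell Hi-C features. All cells with the authors' quality flag set were taken, 4098 of 5871 listed cells, whatever their insulation. Hi-C joins DNA ends that lie close together in a fixed nucleus and reads the pairs as contacts. It was run on single mouse embryonic stem cells of 2 lines, which the authors then placed along the cell cycle. The haploid line ESC20 (H129-1) gave 1247 passing cells in 19 of 20 libraries. A diploid F1 hybrid of 129/SV-Jae and castaneus gave 1992 passing cells in 18 libraries grown in 2i and 859 in 8 libraries grown with fetal bovine serum. 2i medium holds kinase inhibitors that keep the cells naive, and the 2i cultures had no feeder cells. The serum cultures grew on feeders, which were depleted with beads before Oct-3/4-positive cells were sorted. The haploid table holds both media. Nuclei of all cells were crosslinked with formaldehyde, and part of the cells were also sorted by Hoechst stain for DNA and by Geminin, a protein that builds up after G1. The library diploid 2_14 holds cells of both diploid tables. Each line is a single line, and the tables hold no expression values from which its identity could be checked.

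Interphase chromosomes fold into topologically associating domains, stretches of DNA that contact themselves more often than their neighbours. Borders between domains are held largely by the DNA-binding protein CTCF, which stalls cohesin, the ring-shaped complex that extrudes chromatin loops. Insulation scores measure how rarely contacts cross a border, and domains are known to be lost from condensed mitotic chromosomes and to re-form in G1.

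The scale of mean_insu, the set of borders it averages over and whether a higher value means a stronger border are not given in the sources used here, so values are reported as a score. No border positions were used. Every passing cell had an insulation value and no other cell had one. The score ran from 1.618 to 2.931 in the haploid table, with a median of 2.337. It ran from 1.504 to 2.806 in the diploid 2i table, with a median of 2.372, and from 1.588 to 2.649 in the diploid serum table, with a median of 2.245. Levels were not compared between tables. The median passing cell had 80858 contacts in the haploid table, 205511 in the 2i table and 255605 in the serum table. Each sequencing lane held a single library, and so effects of lane and of library cannot be told apart. The cells were indexed with 241 index pairs, 228 of them used in more than 1 library, and 0 lane and index pairs were shared. The labels do not say that libraries were separate cultures, so the p-values below cover the spread between libraries as deposited, which may be technical.

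Insulation was lower in late-S/G2 than in G1 and early-S in all 3 tables. The phases are the authors' groups, and what entered the grouping is not given in the sources used here. Library means were taken where a library held 10 or more cells of the phase. The haploid mean was 2.390 ± 0.0391 (SD, n = 9) in G1, 2.398 ± 0.0545 (SD, n = 13) in early-S and 2.183 ± 0.0256 (SD, n = 9) in late-S/G2. The diploid 2i libraries gave 2.480 ± 0.0396 (SD, n = 10), 2.425 ± 0.113 (SD, n = 16) and 2.211 ± 0.0297 (SD, n = 10) in the same order. The diploid serum libraries gave 2.335 ± 0.0281 (SD, n = 7), 2.346 ± 0.0395 (SD, n = 8) and 2.148 ± 0.0352 (SD, n = 7). Early-S had the widest spread between libraries in each table. In the haploid table the lowest early-S library was haploid 20 at 2.321 and the highest haploid 6 at 2.506. In the 2i table early-S ran from 2.220 in diploid 23 to 2.561 in diploid 19, which come from different sort gates described further on.

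**Figure D1:**
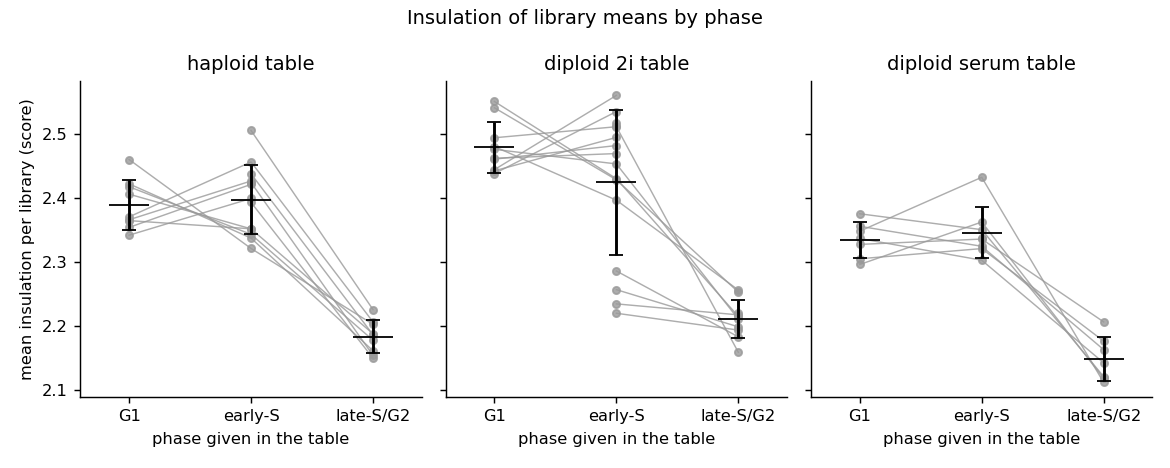
Mean insulation score of each library (y axis) in G1, early-S and late-S/G2 (x axis), 1 panel per table, for libraries holding 10 or more cells of that phase. Points of 1 library are joined, and black bars are the mean ± SD over libraries. The late-S/G2 means (2.183, 2.211 and 2.148) lie below those of G1 and early-S in each panel, and early-S of the 2i table has the widest spread.

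Differences between phases were taken within libraries, which leaves out differences between libraries. From early-S to late-S/G2 insulation fell by 0.214 ± 0.0576 (SD) in the haploid table, in 9 of 9 libraries (exact two-sided sign-flip test over libraries, p = 0.00391, Benjamini-Hochberg adjusted p = 0.012). It fell by 0.148 ± 0.111 (SD) in the 2i table, in 9 of 9 libraries (exact test, adjusted p = 0.012). In the serum table it fell by 0.199 ± 0.0690 (SD), in 7 of 7 libraries (exact test, adjusted p = 0.028). The p-values were adjusted over 86 tests of all deposited features, of which 51 (59.3%) passed, so a call of this kind was common among the features. With any 1 of the serum libraries diploid 2_14, 3, 4, 5_10, 7, 8 or 9 left out, that fall was between -0.211 and -0.179 and its adjusted p between 0.0507 and 0.0527 (exact tests over 6 libraries).

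The size of this fall differed between libraries. Haploid libraries 1, 3, 6, 7 and 8, all grown in 2i, fell by 0.271, 0.244, 0.280, 0.251 and 0.252. Haploid libraries 17, 18, 19 and 20, grown in serum, fell by 0.166, 0.164, 0.176 and 0.119. Each 2i-grown haploid library thus fell further than each serum-grown one. By their labels, 2i_all against Serum_G1/S, these libraries also differ in sort, so medium and sort cannot be told apart. In the 2i table diploid 23, 24, 25 and 26, sorted for S phase or G2, fell by 0.0264, 0.0172, 0.103 and 0.0582. The unsorted diploid 28_29, 30_31, 32_33 and 34_35 fell by 0.176, 0.141, 0.216 and 0.243, and diploid 11 fell by 0.353. The serum libraries changed by between -0.321 in diploid 9 and -0.130 in diploid 2_14.

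From G1 to early-S no table showed a difference past the threshold. The mean difference was -0.0105 ± 0.0816 (SD, n = 9 libraries) in the haploid table, with 4 libraries up and 5 down (exact sign-flip test, adjusted p = 0.758). It was -0.00288 ± 0.0826 (SD, n = 10) in the 2i table, with 6 up and 4 down (sign-flip test with 100000 permutation resamples, adjusted p = 0.921). It was 0.0121 ± 0.0476 (SD, n = 7) in the serum table, with 4 up and 3 down (exact test, adjusted p = 0.604). Libraries of each table thus moved in both directions. The haploid mean changed sign to 0.00561 without haploid 20, and the 2i mean to 0.00933, 0.00613 and 0.0102 without diploid 28_29, 30_31 or 32_33.

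Along the authors' order of cells, insulation rose through G1 to a peak in early-S and then fell through the rest of early-S, before the replication score had reached its own peak. The replication score is a deposited value per cell, scaled so that the lowest cell of each table is 1; its definition, and what entered the order, are not given in the sources used here. The course is therefore a description with no test. With cells in 20 bins of equal size, the haploid mean over libraries rose from 2.288 in the first bin to 2.462 ± 0.0686 (SD, n = 11 libraries) in bin 8, and ended at 2.097. The 2i mean reached 2.579 ± 0.0327 (SD, n = 12) in bin 7 and ended at 2.168. The serum mean reached 2.439 ± 0.0395 (SD, n = 6) in bin 5 and ended at 2.068. The replication score peaked later, in bins 15, 14 and 13. By then 69.8% of the fall from peak to last bin had passed in the haploid table, 78.9% in the 2i table and 64.8% in the serum table. These shares depend on the binning. They were 77.7, 77.6 and 72.9% with 10 bins, and 58.6, 69.4 and 63.7% with 40 bins. The change from peak to last bin was -0.365, -0.411 and -0.371 in the same order, and its size grows with the number of bins (-0.443, -0.474 and -0.467 with 40 bins).

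**Figure D2:**
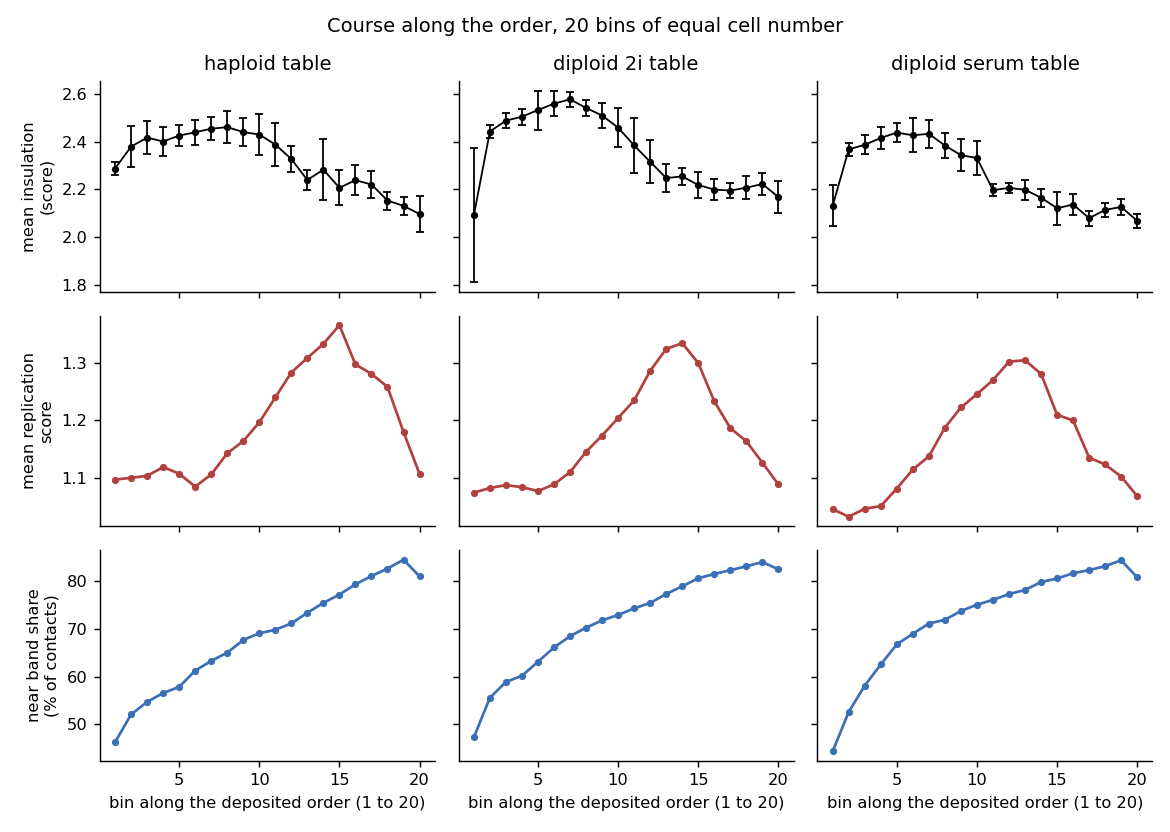
Cells of each table in 20 bins of equal size along the authors' order (x axis), with the insulation score as the mean over libraries ± SD, the mean replication score, and the share of contacts in the near band in percent. Insulation peaks at 2.462, 2.579 and 2.439 in bins 8, 7 and 5, before the replication score peaks in bins 15, 14 and 13, while the near share rises up to bin 19 and is lower in bin 20.

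The ends of the order held the cells nearest mitosis, and these were lowest in insulation. Cells that the authors call post-M, after mitosis by the name, had a mean over cells of 1.660 (3 haploid cells), 1.665 (29 cells, 2i) and 1.748 (6 cells, serum). Pre-M cells had 2.025 (21 cells), 1.963 (28 cells) and 1.995 (17 cells). Post-M cells also filled 29% of the first 2i bin, whose mean of 2.092 was the lowest of that table. Pre-M cells filled 33.9, 28.3 and 40.5% of the last of 20 bins in the haploid, 2i and serum tables. No library but 1 had 10 cells of either phase, so neither was tested.

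Splitting each phase at its median position in the order described that course within libraries. The split uses the same cells and the same order, so it is no separate evidence for the course. In G1, cells after the median were higher than cells before it by 0.0574 ± 0.0246 (SD) in 7 of 7 haploid libraries (exact sign-flip test, p = 0.0156, adjusted p = 0.0671). They were higher by 0.0826 ± 0.0462 (SD) in 5 of 5 2i libraries (exact test, p = 0.0625, the smallest that 5 libraries allow). In the serum table they were higher by 0.0973 in diploid 3 and 0.106 in diploid 9, with no test. The haploid G1 differences ran from 0.00555 in haploid 19 to 0.0773 in haploid 18, so all were upward but 1 was near zero.

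In early-S the direction was the opposite. Before the median the 9 2i libraries had a mean of 2.556 ± 0.0173 (SD), and after it 2.382 ± 0.0696 (SD). The difference was -0.174 ± 0.0616 (SD), downward in 9 of 9 libraries, from -0.297 in diploid 28_29 to -0.107 in diploid 21 (exact test, p = 0.00391, adjusted p = 0.0604). The serum libraries went from 2.410 to 2.280, downward in 6 of 6 (exact test, p = 0.0312, the smallest possible, adjusted p = 0.0884). The haploid libraries went from 2.453 to 2.310, downward in 7 of 8, with haploid 8 upward by 0.0427 (exact test, p = 0.0156, adjusted p = 0.0671). In late-S/G2 the difference was -0.0916 ± 0.0524 (SD) in 6 of 6 haploid libraries, -0.0031 in the 2i table with 4 of 8 libraries down, and -0.0266 in 4 of 4 serum libraries. Of 116 such tests over all features 0 (0%) passed after adjustment of the exact sign-flip tests, and 45 had an unadjusted p under 0.05. With at least 5 rather than 10 cells on each side, G1 and early-S of the haploid and 2i tables, haploid late-S/G2 and serum early-S were past the threshold (exact or permutation adjusted p from 0.0076 to 0.0429).

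The share of contacts in the near band, a deposited share of a cell's contacts at short genomic distance whose limits are not given, rose along the order up to bin 19 of 20 and was lower in the last bin, in all 3 tables. Insulation was highest at its middle values. In the haploid table the mean over libraries was 2.351 at a near share of 45 to 50%, 2.438 at 55 to 60%, 2.435 at 60 to 65% and 2.133 at 85 to 90%. In the 2i table it was 2.324 at 45 to 50%, 2.537 at 65 to 70% and 2.208 at 85 to 90%. In the serum table it was 2.289 at 45 to 50%, 2.437 at 60 to 65% and 2.137 at 85 to 90%. Each table thus rose and then fell over the same range. Within a phase the relation changed sign. The median Spearman's rho over libraries between insulation and near share was 0.38, 0.47 and 0.68 across G1 cells of the haploid, 2i and serum tables (277, 333 and 84 cells), and -0.36, -0.38 and -0.41 across early-S cells (507, 840 and 339 cells). Both values come from the same contacts of a cell, so these are descriptions.

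Phase and replication score overlap in part, so phases were compared between cells of 1 library in the same replication score bin, 0.05 wide. Near share, in which the phases also differ, was not held in these comparisons. Late-S/G2 cells stayed below early-S cells. The difference was -0.222 ± 0.0727 (SD), downward in 9 of 9 haploid libraries (exact sign-flip test, adjusted p = 0.0269). It was -0.102 ± 0.0976 (SD), downward in 8 of 10 2i libraries (sign-flip test with 100000 permutation resamples, adjusted p = 0.0397), and -0.163 ± 0.124 (SD), downward in 7 of 7 serum libraries (exact test, adjusted p = 0.0397). Of 66 tests over all features 26 (39.4%) passed. The haploid call was kept without any 1 library. The 2i call was lost without diploid 25, 26, 28_29, 30_31, 32_33 or 34_35 (adjusted p = 0.0516 by permutation, difference -0.0983, -0.107, -0.0975, -0.0974, -0.0864 and -0.0850). The serum call was lost without any 1 of its 7 libraries, diploid 2_14, 3, 4, 5_10, 7, 8 and 9 (difference from -0.184 to -0.133, exact adjusted p from 0.0603 to 0.0737).

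Late-S/G2 cells also lay below G1 cells of the same replication score. The difference was -0.228 ± 0.0546 (SD) in 5 of 5 haploid libraries (exact test, p = 0.0625, the smallest possible). It was -0.230 ± 0.050 (SD) in 4 of 4 serum libraries (exact test, p = 0.125, the smallest possible), and -0.331 over 2 2i libraries, with no test. At a replication score of 1.05 to 1.10 the mean over cells was 2.398 in G1, 2.472 in early-S and 2.136 in late-S/G2 of the haploid table. The same bin held 2.460, 2.558 and 2.198 in the 2i table, and 2.339, 2.454 and 2.120 in the serum table. Cells with a like, low replication score thus differed by phase. At 1.30 to 1.35 early-S and late-S/G2 lay close together, at 2.247 and 2.187 in the haploid table, 2.246 and 2.237 in the 2i table and 2.234 and 2.181 in the serum table.

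**Figure D3:**
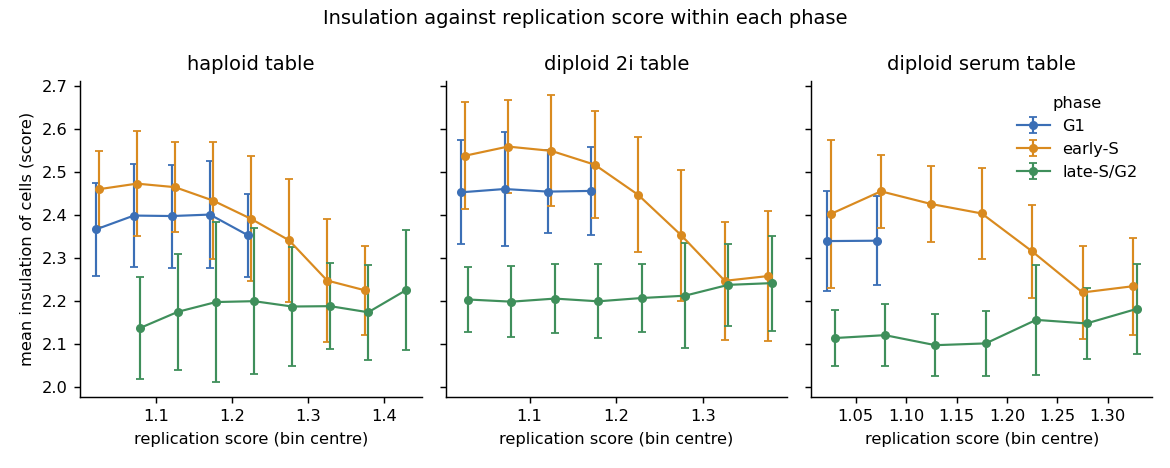
Mean insulation score over cells ± SD (y axis) in bins of replication score 0.05 wide (x axis), by phase and table, for bins with at least 10 cells. Early-S falls from 2.472, 2.558 and 2.454 at 1.05 to 1.10 to 2.247, 2.246 and 2.234 at 1.30 to 1.35, while late-S/G2 lies between 2.120 and 2.237 in those 2 bins.

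At a like near share, cells of higher replication score had lower insulation. With the near share held in bins 5 percentage points wide and the phase held, cells above the median replication score of their stratum were compared with cells below it. Over the 3 phases the difference was -0.0447 ± 0.0339 (SD), downward in 12 of 13 haploid libraries (sign-flip permutation, adjusted p = 0.0112). It was -0.0409 ± 0.0503 (SD), downward in 11 of 16 2i libraries (permutation, adjusted p = 0.0340), and -0.0414 ± 0.0398 (SD), downward in 6 of 7 serum libraries (exact test, p = 0.0312, adjusted p = 0.0964). Of 37 tests over all features 7 (18.9%) passed. The 2i call was lost without diploid 11, 12, 22, 28_29, 2_14, 30_31 or 32_33 (difference -0.0396, -0.0390, -0.0355, -0.0396, -0.0402, -0.0401 and -0.0353, permutation adjusted p from 0.0503 to 0.0567).

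Taken by phase, early-S cells went from 2.425 below the median replication score to 2.333 above it, downward in 9 of 9 haploid libraries (exact test, p = 0.00391, adjusted p = 0.156). They went from 2.485 to 2.399, downward in 13 of 14 2i libraries (permutation, p = 0.00108, adjusted p = 0.108), and from 2.404 to 2.299, downward in 5 of 5 serum libraries (exact test, p = 0.0625, the smallest possible). The 6 differences in G1 and late-S/G2 lay between -0.0186 and 0.0227. In late-S/G2 the difference was upward in 5 of 8 haploid, 6 of 8 2i and 5 of 6 serum libraries. No test by phase passed the adjustment, and over all features 0 of 100 (0%) passed by these sign-flip tests and 20 had an unadjusted p under 0.05. Without diploid 24 the 2i early-S difference was -0.0981 and passed (permutation, adjusted p = 0.0320). Across early-S cells the median rho within libraries between insulation and replication score was -0.52, -0.57 and -0.68, and across late-S/G2 cells it was 0.0672, 0.0985 and 0.0617. The cells of a library share its preparation.

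With these columns exchanged, differences lay in G1. Holding the phase also kept the near share within the range of that phase. At held replication score and phase, cells above the median near share differed from cells below it by 0.00343 ± 0.0352 (SD, n = 13 libraries) in the haploid table (permutation, adjusted p = 0.869) and by 0.0129 ± 0.0379 (SD, n = 16) in the 2i table (permutation, adjusted p = 0.397). In the serum table they were higher by 0.025 ± 0.0116 (SD), in 7 of 7 libraries (exact test, adjusted p = 0.0482). Of 37 tests 12 (32.4%) passed, and the serum call was lost without any 1 of its libraries, diploid 2_14, 3, 4, 5_10, 7, 8 and 9 (difference from 0.0215 to 0.0274, exact adjusted p from 0.0826 to 0.0889). In G1 alone, cells of higher near share were higher in insulation by 0.0643 in 7 of 7 haploid libraries (exact test, p = 0.0156, adjusted p = 0.130), by 0.0833 in 4 of 4 2i libraries (exact test, p = 0.125, the smallest possible) and by 0.105 over 2 serum libraries. In early-S and late-S/G2 the 6 differences lay between -0.0487 and 0.0157. Of 100 such tests by phase over all features 1 (1%) passed.

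The 2i table holds cells sorted into 4 gates on Hoechst and Geminin, labelled 1CD_G1, 1CD_eS, 1CD_mS and 1CD_lS_G2, each with 2 larger libraries. Over cells of all phases, diploid 19 and 20 of the G1 gate had 2.458 and 2.459. Diploid 21 and 22 of the early-S gate had 2.507 and 2.509. Diploid 23 and 24 of the mid-S gate had 2.202 and 2.221, and diploid 25 and 26 of the late-S and G2 gate had 2.156 and 2.148. The libraries of a gate lay close together, and no gates overlapped. The range between the lowest and the highest gate mean was 0.356. An exact permutation test of the sum of squares between gates, over 8 libraries, gave p = 0.00952, the smallest possible (adjusted p = 0.0357). Of 15 features 9 (60%) passed the same exact test. Without diploid 24 the range was 0.356 and the adjusted p of that test 0.0536. Between neighbouring gates in cycle order, the step from early-S to mid-S was the widest.

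Each gate lies in its own libraries, so gate and library cannot be told apart in these 8. One smaller library, diploid 15_16_17_18, held all 4 gates with 5 or 6 cells each, and gave 2.515 in the G1 gate, 2.448 in the early-S gate, 2.216 in the mid-S gate and 2.225 in the late-S and G2 gate. It had the same wide step between early-S and mid-S, but these gates held cells of different phases there. The early-S gate held 4 early-S cells (2.555) and 2 late-S/G2 cells (2.235). The mid-S gate held 5 late-S/G2 cells (2.216) and no early-S cell. This library also joins several batch numbers, and its gates were not compared within a batch. In G1, early-S and late-S/G2 cells alone, diploid 25 and 26 rose to 2.193 and 2.207, close to the 2.208 and 2.221 of diploid 23 and 24, since their gate also held 17 post-M and 23 pre-M cells.

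Cells of 1 phase also differed by gate. Early-S cells had means of 2.561 (22 cells) and 2.536 (30 cells) in the G1 gate, 2.513 (146 cells) and 2.518 (135 cells) in the early-S gate, 2.220 (47 cells) and 2.235 (36 cells) in the mid-S gate, and 2.286 (12 cells) and 2.257 (17 cells) in the late-S and G2 gate. The order of the gates was that of rising replication score up to mid-S. The mean replication score of these cells was 1.093 and 1.088, 1.187 and 1.197, 1.297 and 1.277, and 1.196 and 1.189, in the same order of libraries. Early-S cells of the late-S and G2 gate thus had a replication score like that of the early-S gate, with an insulation close to the mid-S gate. At a near share of 75 to 80%, over all phases, the early-S gate had 2.469 and 2.442, the mid-S gate 2.198 and 2.217, and the late-S and G2 gate 2.161 and 2.209. These values by gate within a phase or a bin were not tested.

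**Figure D4:**
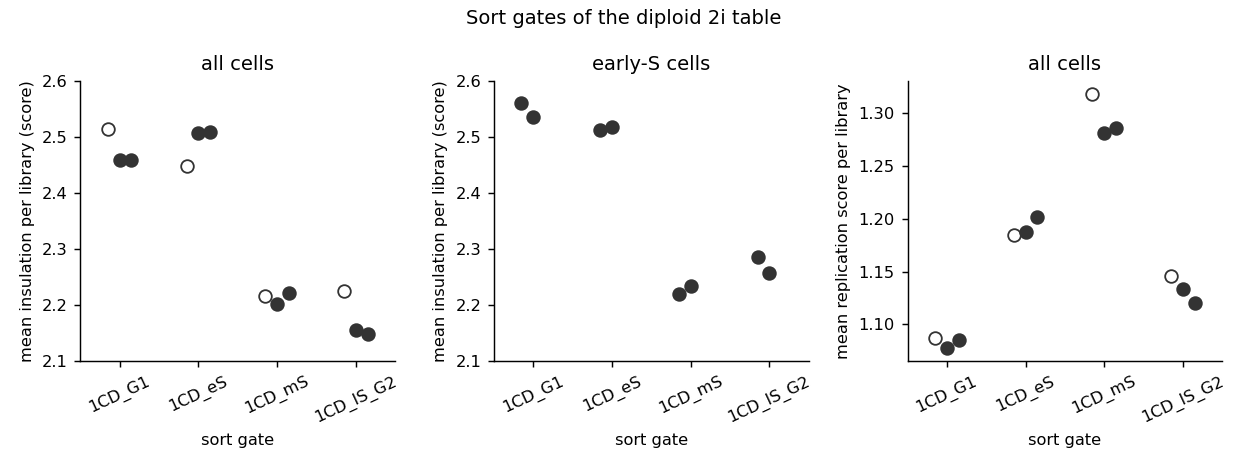
Library means by sort gate of the diploid 2i table: insulation score over all cells, insulation score of early-S cells, and replication score (y axes), with gates in cycle order (x axis). Filled points are the 2 larger libraries of each gate and open circles are diploid 15_16_17_18 with 5 or 6 cells per gate. That library is left out of the panel of early-S cells. Insulation drops between the early-S gate (2.507 and 2.509) and the mid-S gate (2.202 and 2.221).

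The haploid table sets libraries grown in 2i (labelled 2i_all or 2i_G1) against libraries labelled Serum_G1/S, grown in serum and, by that label, sorted for G1 and S. In early-S the 9 libraries grown in 2i had a mean of 2.424 ± 0.0429 (SD), with a lowest of 2.3522, a median of 2.425 and a highest of 2.506. The 4 serum libraries haploid 17, 18, 19 and 20 had 2.343, 2.3521, 2.338 and 2.321. The serum libraries lay below all 2i libraries, though the nearest, haploid 13 and haploid 18, were almost equal. The difference was -0.0858 (exact permutation of library labels, p = 0.0014, the smallest possible, adjusted p = 0.0319). Of 114 tests over all features 5 (4.39%) passed. Medium and sort changed together and cannot be told apart. Replication score and depth differed as well. Early-S cells of the 2i libraries had a mean replication score of 1.168 (library range 1.110 to 1.217) and of the serum libraries 1.249 (1.231 to 1.281), with means of 64844 and 165028 contacts per cell. The call was lost without haploid 1, 11, 12, 17, 18, 19, 20, 7 or 8 (difference -0.0858, -0.0855, -0.0862, -0.0874, -0.0903, -0.0855, -0.0801, -0.0818 and -0.0841, exact adjusted p from 0.0709 to 0.121).

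In G1 the haploid difference ran the other way. Haploid 7 (labelled 2i_all) and haploid 11, 12, 13 and 14 (labelled 2i_G1), grown in 2i, had 2.371, 2.366, 2.354, 2.365 and 2.342. Haploid 17, 18, 19 and 20, grown in serum, had 2.418, 2.406, 2.423 and 2.461. All serum libraries were higher, by 0.0672 on average (exact permutation, p = 0.00794, the smallest possible, adjusted p = 0.0646). In late-S/G2 the means were 2.184 ± 0.0329 (SD, n = 5) in 2i and 2.182 ± 0.0174 (SD, n = 4) in serum, and the groups overlapped (exact permutation, p = 0.929). These late-S/G2 cells differed in near share, at 82.3 to 82.9% in the 2i libraries and 79.5 to 80.8% in the serum libraries. They also differed in depth, with means of 63239 and 181593 contacts per cell.

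**Figure D5:**
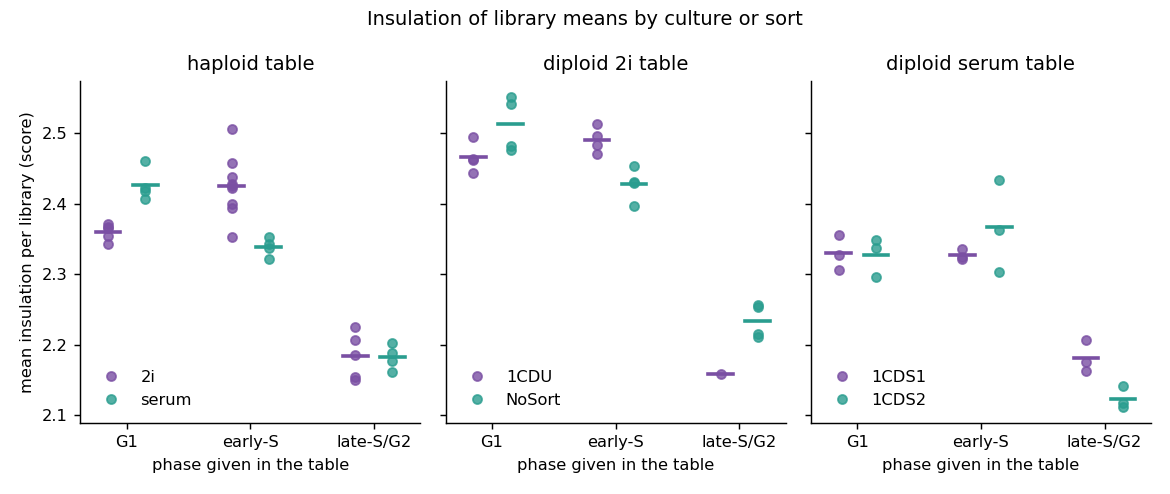
Mean insulation score of each library (y axis) by condition and phase (x axis) in the 3 tables, with a line at each group's mean. Haploid serum libraries are lower than haploid 2i libraries in early-S (2.339 against 2.424) and higher in G1 (2.427 against 2.360), and NoSort libraries are lower than 1CDU libraries in early-S (2.428 against 2.490).

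The 2i table has unsorted libraries, labelled NoSort, and libraries labelled 1CDU, a label that the sources used here do not spell out. In early-S diploid 11, 12, 13 and 2_14 (1CDU) had 2.512, 2.483, 2.495 and 2.470. Diploid 28_29, 30_31, 32_33 and 34_35 (NoSort) had 2.429, 2.397, 2.431 and 2.454. The NoSort libraries were all lower, with a mean difference of -0.0624 (exact permutation, p = 0.0286, the smallest possible, adjusted p = 0.112). Their early-S cells also had a higher near share, 72.8% against 69.9%, with no overlap. In G1 the NoSort mean was higher, 2.513 ± 0.0394 (SD, n = 4) against 2.465 ± 0.0215 (SD, n = 4), and the groups overlapped (exact permutation, adjusted p = 0.184). In the serum table libraries labelled 1CDS1 and 1CDS2, which the sources do not spell out either, overlapped in G1 and early-S. In late-S/G2 diploid 2_14, 3 and 4 (1CDS1) had 2.206, 2.163 and 2.176, and diploid 7, 8 and 9 (1CDS2) had 2.118, 2.142 and 2.112. The latter were all lower, with a mean difference of -0.0579 (exact permutation, p = 0.1, the smallest possible), and their late-S/G2 cells had a replication score of 1.143 against 1.291. Within the library diploid 5_10, which holds both and stood outside that comparison, late-S/G2 cells had 2.191 in 1CDS1 (15 cells) and 2.089 in 1CDS2 (33 cells).

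At held replication score the early-S differences were smaller and the G1 differences were not. Cells were set against the level of their replication score bin, 0.05 wide, in bins holding both conditions, and the deviations averaged by library. The haploid early-S difference between serum and 2i was then -0.0266, over 4 and 8 libraries that overlapped (exact permutation, p = 0.398, adjusted p = 0.512). The haploid G1 difference was 0.0707, over 4 and 5 libraries with no overlap (exact permutation, p = 0.0159, adjusted p = 0.0812). Of 87 tests at held replication score 0 (0%) passed by exact permutation, and 32 had an unadjusted p under 0.05. With the near share held instead, the haploid early-S difference was -0.0733 with overlap (exact permutation, p = 0.0308, adjusted p = 0.0756) and the G1 difference 0.0782 with none (exact permutation, p = 0.00794, adjusted p = 0.0575), where 4 of 87 tests (4.6%) passed. In the 2i table the early-S difference of NoSort from 1CDU was -0.0386 at held replication score (exact permutation, p = 0.171) and -0.00955 at held near share (exact permutation, p = 0.714). The G1 difference there was 0.0707 at held replication score (exact permutation, p = 0.0857) and 0.0730 at held near share, over 3 and 4 libraries with no overlap (exact permutation, p = 0.0286, the smallest possible, adjusted p = 0.0756).

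The steps from G1 to early-S differed between conditions in the same sense. The step was 0.0173, 0.0213, 0.0524 and 0.00733 in diploid 11, 12, 13 and 2_14 (1CDU). It was -0.113, -0.0840, -0.121 and -0.0228 in diploid 28_29, 30_31, 32_33 and 34_35 (NoSort). All of the former were upward and all of the latter downward, and the steps differed by -0.110 (exact permutation, p = 0.0286, the smallest possible, adjusted p = 0.127). In the haploid table the step was 0.0518 ± 0.0377 (SD, n = 5) in 2i, upward in 4 of 5 libraries, and -0.0883 ± 0.0363 (SD, n = 4) in serum, downward in 4 of 4 (exact permutation of the difference, p = 0.0159, adjusted p = 0.125). The step from early-S to late-S/G2 was -0.260 ± 0.0154 (SD, n = 5) in haploid 2i libraries and -0.156 ± 0.0256 (SD, n = 4) in serum ones, with no overlap (exact permutation, p = 0.00794, the smallest possible, adjusted p = 0.0805). Of 71 tests of such differences over all features 0 (0%) passed by exact permutation, and 17 had an unadjusted p under 0.05. The G1 to early-S steps of diploid 19 and 20, from the G1 gate, were 0.116 and 0.0971, the highest of the 2i table.

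The haploid conditions were also set side by side along the order, with no test. In bin 2 of 10 bins, G1, the serum libraries had a mean of 2.455 ± 0.0269 (SD, n = 4) and the libraries labelled 2i_G1 2.362 ± 0.0449 (SD, n = 4). The libraries labelled 2i_all were nearer to serum there, at 2.424 ± 0.0318 (SD, n = 2). In bin 7 the serum libraries had 2.218 ± 0.0101 (SD, n = 4) and the libraries labelled 2i_all 2.406 ± 0.0581 (SD, n = 4), at mean replication scores of 1.326 and 1.295. The gap was narrower in the bins on either side, with 2.327 in serum and 2.445 in 2i_all in bin 6, and 2.199 and 2.210 in bin 8. In bin 9 the serum libraries had 2.175 and the libraries labelled 2i_all 2.184. The libraries labelled 2i_G1 are other libraries than those labelled 2i_all.

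In the median library, cells of 1 phase differed most in early-S. The median SD over cells within a library was 0.106 in G1, 0.158 in early-S and 0.119 in late-S/G2 of the haploid table. It was 0.0955, 0.138 and 0.0922 in the 2i table and 0.100, 0.134 and 0.0868 in the serum table. From G1 to early-S the log2 ratio of SDs was 0.42 ± 0.20 (SD), upward in 8 of 8 haploid libraries (exact sign-flip test, p = 0.00781, adjusted p = 0.143). It was upward in 4 of 6 2i libraries and 2 of 3 serum libraries, and the exceptions in the 2i table were diploid 19 and 20, whose early-S cells passed the G1 gate. From early-S to late-S/G2 the log2 ratio was -0.88 ± 0.30 (SD), downward in 6 of 6 2i libraries (exact test, p = 0.0312, the smallest possible, adjusted p = 0.143), -0.56, downward in 5 of 5 serum libraries, and -0.27, downward in 5 of 7 haploid libraries. The haploid SD rose in haploid 7 (0.172 to 0.181) and haploid 8 (0.134 to 0.172), both labelled 2i_all. It fell in haploid 3, also labelled 2i_all, and in the serum-grown haploid 17, 18, 19 and 20. Of 73 tests over all features 0 (0%) passed by the exact tests, and 19 had an unadjusted p under 0.05.

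Among 2i libraries with 20 or more early-S cells, the unsorted ones had the widest spread, with SDs of 0.222, 0.183, 0.209 and 0.206 in diploid 28_29, 30_31, 32_33 and 34_35, against 0.0803 and 0.0919 in diploid 19 and 20 of the G1 gate. Differences between library means made up 30.5% of the variance between early-S cells in the 2i table, which joins the gates, and 6.67% and 7.74% in the haploid and serum tables. In G1 the shares were 2.05%, 9.71% and 2.01% for the 2i, haploid and serum tables. A linear fit on near share and replication score within a library took up a median of 44.3% of the early-S variance in 4 haploid libraries, 47.0% in 9 2i libraries and 48.6% in 4 serum libraries (adjusted R-squared). In late-S/G2 it took up 10.1%, -0.978% and 2.52%, a negative value meaning that the fit did no better than the mean. More than 50% of the early-S variance in the median library was thus not taken up by those columns.

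Most single late-S/G2 cells lay below the G1 median of their library, and many lay within the range of its G1 cells. The share of late-S/G2 cells above the G1 median of their own library had a median of 0% over libraries in all 3 tables, with a highest of 18% in 1 haploid library, 15.6% in 1 serum library and 0% in the 5 2i libraries. The share below all G1 cells of the library had a median of 40.9% in the haploid, 63.6% in the 2i and 13.3% in the serum table. For early-S cells the median share was 59.5% in the haploid, 61.0% in the 2i and 50.0% in the serum table, and in 2i libraries it ran from 29.5% to 95.5%.

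Cells with more contacts had a lower insulation score at the same phase. Between the lowest and the highest tercile of contacts in a library and phase, the score differed by -0.0386 ± 0.0426 (SD), downward in 10 of 13 haploid libraries (sign-flip permutation, p = 0.0093, adjusted p = 0.0323). It differed by -0.0279 ± 0.0232 (SD), downward in 13 of 16 2i libraries (permutation, adjusted p = 0.00464), and by -0.0326 ± 0.0333 (SD), downward in 5 of 7 serum libraries (exact test, adjusted p = 0.116). Of 80 tests of level and spread over all features 36 (45%) passed. The median rho within libraries between insulation and contacts was -0.0522, -0.0948 and 0.0597 in G1 of the haploid, 2i and serum tables. It was -0.210, -0.116 and -0.184 in early-S, and -0.214, -0.0692 and -0.105 in late-S/G2. The spread between cells was lower in deep cells of the haploid table, by a log2 ratio of -0.31 (permutation, adjusted p = 0.0216), and did not pass in the 2i table (-0.11, permutation, adjusted p = 0.331) or the serum table (0.087, exact test, adjusted p = 0.690). In cells whose contacts lay between the 25th and 75th percentiles of their table, the step from early-S to late-S/G2 was -0.231, -0.154 and -0.245 in the haploid, 2i and serum tables, over fewer libraries. It was not past the threshold in the haploid and 2i tables and not tested in the serum table. In those cells the haploid early-S difference between media was -0.0503 (exact permutation, adjusted p = 0.0989).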

How the data were processed

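Reads of single-cell Hi-C libraries were aligned with Bowtie2 to mm9, per the submitters' processing notes. The authors deposited 3 tables of cells by features. Contacts per cell are a deposited count. The near band and other contact shares are each a deposited fraction, shown in percent. Insulation and replication are each a deposited score with no stated scale. Loop enrichments, read as log2 from their range, entered only as other features under adjustment, as deposited. The authors' order, phase, condition, batch number and quality flag were used as deposited. How any feature was computed is not given in the sources used here.

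Cells with the quality flag were averaged within a library (a GEO sample within a table), joined by the authors' batch number. Libraries needed at least 10 cells of a phase, or 20 for spread and held bins, with at least 2 cells on each side of a bin. For diploid 27 the join used its title's number. Differences within libraries were tested by two-sided sign-flip tests, and conditions by two-sided permutation of library labels. Both were exact, except sign-flip tests over 10 or more libraries, which used 100000 resamples. The test over 4 gates was an exact permutation of library labels on the sum of squares between gates. Benjamini-Hochberg adjustment ran over all deposited features (15, and 13 in the serum table) and comparisons of 1 kind, at a threshold of 0.05. The members, comparisons and lists were chosen with earlier results of these data known. Splits by phase, conditions at held bins, differences between steps and the test over 4 gates were added after the data were seen. The tables give no values per gene, so none was named. A library was named where it was highest or lowest, where leaving it out changed a call, or in groups of at most 5. Alternatives were other minimums, medians, bin widths, depth limits, batch numbers as the unit, and each library left out. Depth per cell had medians of 80858 (haploid), 205511 (2i) and 255605 (serum) contacts, and the number of libraries limits the precision. The sign-flip tests of phase steps, order splits, spread and the replication split were tested on simulated data. The 4 RNA samples were not used. Computation used Python 3.11.15 with scipy 1.17.1, pandas 2.3.3, numpy 2.4.6 and, for figures, matplotlib 3.10.9.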

Additional observations from a re-analysis of the deposited data

Results flagged for a closer look

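Of 60 groups of 4 to 10 libraries, 3 held a library far from its neighbours, and chance gives about 1 in 20. The G1 to early-S step of haploid 13 was -0.0128 among 5 haploid libraries grown in 2i, whose nearest other value was 0.0575. The rise within G1 of haploid 19 was 0.00555 among 7 haploid libraries, the nearest being 0.0529. At held replication score, early-S cells of haploid 7 with a high near share were higher by 0.163 than those with a low one, while the nearest of the other 7 haploid libraries was at 0.0294. The steps from G1 to early-S of 1CDU and NoSort libraries in the diploid 2i table differed by -0.110, with all 4 of the former up and all 4 of the latter down (exact permutation, p = 0.0286, adjusted p = 0.127).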

How the results depend on the processing

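The fall from early-S to late-S/G2 kept its direction under every setting run, in all 3 tables. It was not past the threshold, or had no test, with a minimum of 20 cells per library and phase (haploid -0.196, 2i -0.136, serum -0.204) or in cells of mid depth, between the 25th and 75th percentiles of contacts (-0.231, -0.154 and -0.245), where fewer libraries entered. Where no reason is given below, the cause was not tested. The number of libraries, from 1 to 16 a side, sets the smallest p, and the labels name no separate cultures. No paired analysis was possible because diploid and haploid libraries that share a replicate number lie in separate tables whose levels were not compared. Differences between phases, and within held bins, were taken within libraries and so are paired by library.

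The small G1 to early-S step changed sign in the haploid table with a minimum of 5 cells (0.00772) and at mid depth (0.00687), and in the 2i table with a minimum of 20 cells or batch numbers as the unit (0.0520 in both), with medians (0.0165) and at mid depth (0.0643). Within phases, a minimum of 5 cells on each side of the median order brought 2i G1 (0.0983), 2i early-S (-0.178), serum early-S (-0.155), haploid G1 (0.0549), haploid early-S (-0.134) and haploid late-S/G2 (-0.0666) past the threshold (exact or permutation adjusted p from 0.0076 to 0.0429). Serum G1 moved to 0.117 there, to 0.113 with medians and to 0.0942 at mid depth. Haploid G1 moved to 0.0902 at mid depth, and 2i G1 to 0.153 between the outer terciles of the phase. The 2i late-S/G2 difference turned to 0.00684 between outer terciles and to 0.0485 at mid depth.

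With replication score bins 0.025 wide, late-S/G2 against early-S was not past the threshold in 2i (-0.112) or serum (-0.179), nor at mid depth (haploid -0.192, 2i -0.131, serum -0.162). Late-S/G2 against G1 moved in 2i to -0.315, to -0.296 with bins 0.1 wide and to -0.292 with a minimum of 10 cells, which brought the haploid value (-0.235) past the threshold. The replication split was not past it in 2i with near bins 0.025 in fraction wide (-0.0334) or at mid depth (-0.0378), nor in haploid cells at mid depth (-0.0374). The near split in serum was not past it with bins 0.025 wide (0.0228), bins 0.1 wide (0.00646) or at mid depth (0.0265), and the haploid one turned to -0.00657 with bins 0.1 wide.

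For spread, a minimum of 10 cells brought the 2i fall (-0.86) and the haploid rise (0.41) past the threshold; the 2i fall moved to -1.25 at mid depth, and the serum rise to 0.49 as an interquartile range. For depth, the serum spread turned to -0.00085 between upper and lower cells split at the median, where the haploid one (-0.19) was not past the threshold; nor was it with minimums of 10 (-0.24) and 40 cells (-0.51), nor was the haploid level with 40 (-0.0778), and the serum level turned to 0.00766 with 10.

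Between conditions, a minimum of 5 cells brought haploid G1 (0.0677) and the haploid steps (-0.144 to early-S, 0.101 to late-S/G2) past the threshold. Batch numbers as the unit did so for haploid G1 (0.0672) and 2i early-S (-0.0635). They split the pooled NoSort libraries, so batches of the same library counted there as separate units, which they are not shown to be. The haploid libraries were not split, so the haploid difference was that of the main result and only its adjustment changed. Haploid early-S was not past it at mid depth (-0.0503), and at held replication score and mid depth it turned to 0.00289. Haploid late-S/G2 turned to 0.00225 with 5 cells, 0.0230 with medians and 0.0456 at mid depth. Serum G1 turned to 0.0178 with 20 cells and 0.0104 by batch number. Untested values moved in 2i late-S/G2 with medians (level 0.0389, step 0.112), in serum early-S at mid depth (level 0.104, step to late-S/G2 -0.202) and in the serum step to early-S with 20 cells (0.0921). The fall from peak to last bin moved with 10 bins to -0.363 (2i) and -0.326 (serum), and with 40 bins to -0.443 (haploid), -0.474 (2i) and -0.467 (serum).

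Leaving out each library in turn left 384 refits of the main results counted as unchanged, while 44 fell short of the threshold and 13 changed sign. Where both values had a test, unchanged means the same direction and side of the threshold. Where either had none, it means a shift smaller than the SD. Sign was checked only where the main result had a test. Steps from G1 to early-S ranged from -0.0226 to 0.00561 (haploid) and from -0.0161 to 0.0102 (2i), and the serum fall to late-S/G2 from -0.211 to -0.179. The 2i late-S/G2 difference along the order ranged from -0.00782 to 0.00451. At held replication score late-S/G2 against early-S ranged from -0.117 to -0.0850 (2i) and from -0.184 to -0.133 (serum). The replication split ranged from -0.0459 to -0.0353 (2i), and the near split from -0.00217 to 0.00862 (haploid) and from 0.0215 to 0.0274 (serum). Deep against shallow spread in serum ranged from -0.019 to 0.14. Haploid conditions ranged from -0.0949 to -0.0756 (early-S) and from -0.0107 to 0.00829 (late-S/G2), and serum G1 from -0.0147 to 0.0130. The gate range was 0.352 to 0.360, and the 2i early-S difference at held near share -0.0197 to 0.00401.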

Other observations

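Of the unsorted 2i libraries, 4 pool 2 batches. Early-S means of the second minus the first batch were 0.0170 in diploid 28_29, 0.00998 in diploid 30_31, -0.0350 in diploid 32_33 and -0.0836 in diploid 34_35, over 16 to 25 cells a batch. In late-S/G2 the differences were 0.0219, 0.0352, -0.0525 and -0.0334 in the same order. In the serum library diploid 5_10, whose batches are labelled 1CDS1 and 1CDS2, early-S cells had 2.326 and 2.380.

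Across G1 cells within a library, insulation was lower where the mitotic band, a deposited share of contacts typical of condensed chromosomes by its name, was larger. The median Spearman's rho over libraries was -0.492 (8 haploid libraries, 277 cells), -0.514 (6 2i libraries, 333 cells) and -0.755 (3 serum libraries, 84 cells), and no library had a positive value. In early-S the medians were 0.168, 0.20 and 0.29. Both values come from the contacts of the same cell.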
